A study of Mus musculus with 4 samples.

Results

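The classical pathway of complement, with the central component C3 and the alternative-pathway protease factor B, is encoded in the mouse by a small set of genes, of which C1qa, C1qb, C1qc, C1ra, C4b, C2, C3 and Cfb were examined here. They were found as all non-control probes whose accession is a RefSeq transcript of one of these 8 genes. This gave 10 probes, printed as 28 spots per array, out of 55681 probes, and 8 genes out of 20887 named genes with a probe. C3 and C1ra had 2 probes each. Of the 8 genes, 7 passed the filter on dim probes and were tested, and Cfb did not.

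Complement is a proteolytic cascade of plasma and tissue. C1q, built from the A, B and C chains, binds immune complexes, dying cells and other surfaces and carries the proteases C1r and C1s, which cleave C4 and C2 to form a C3 convertase. Factor B, the relative of C2, forms the alternative convertase that amplifies the deposition of C3. In the brain, C1q is known as a product of microglia, C3 is made by microglia and reactive astrocytes, and both have been studied for tagging synapses and for their presence at amyloid plaques.

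RNA came from cultures of neural precursor cells of the telencephalon of C57BL/6 embryos at day 13, either wild type (WT) or APPswe/PS1dE9, a familial Alzheimer's disease model that expresses APP with the Swedish mutation and presenilin 1 lacking an exon. Cells of both genotypes grew for 5 days as neurospheres in B-27 medium with 20 ng/ml each of EGF and FGF2, and then for 7 days on poly-L-lysine and laminin without these factors, so the RNA is of differentiated, mixed neural cultures. Each of 4 Agilent 2-colour arrays carried 1 APPswe/PS1dE9 and 1 WT culture, the first 2 replicates having APPswe/PS1dE9 in Cy3 and the last 2 having it in Cy5. The series names 4 biological replicates per genotype without saying whether litters or animals were separate. A p-value here covers at most the spread from array to array. Where a dye term was fitted, it covers only the spread between arrays of the same dye orientation. The promoter that drives the transgenes and the zygosity of the embryos are not given in the sources used here.

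The scanner software flagged 47.5% to 59.6% of the spots in a channel as well above background and none as saturated. Genotype ratios of arrays with the same dye orientation correlated at 0.55 and 0.49 (Spearman, across features, which are not independent replicates), and those of arrays with opposite orientation at 0.11 to 0.27. The App probe was at a log2 ratio of 0.12 ± 0.06 (limma adjusted p = 0.281). Whether that probe detects the transgene is not given, so it does not check the labels. The cultures on replicates 2 and 4 matched in sex-linked transcripts and those on replicates 1 and 3 did not.

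Upstream sequence was at hand for 4 of the 8 genes, C1qb, C1qc, C1ra and C3, and is shown for these. Whether they share regulation was not tested. RefSeq (GRCm38.p6, a build other than the mm9 of the arrays) placed the C1qb window at chr4:136886201-136886450 and the C1qc window at chr4:136892915-136893164, both on the minus strand. The C1ra window was at chr6:124512371-124512620 on the plus strand, and the C3 window at chr17:57228137-57228386 on the minus strand. Each is the 250 bases before the annotated start, 5′ to 3′, with capitals for a match to any of 4 motifs described after them.
C1qb: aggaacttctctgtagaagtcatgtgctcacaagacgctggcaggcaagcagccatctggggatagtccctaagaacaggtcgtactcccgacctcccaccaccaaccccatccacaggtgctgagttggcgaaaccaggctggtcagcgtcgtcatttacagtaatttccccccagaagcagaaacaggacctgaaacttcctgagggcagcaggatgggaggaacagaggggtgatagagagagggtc
C1qc: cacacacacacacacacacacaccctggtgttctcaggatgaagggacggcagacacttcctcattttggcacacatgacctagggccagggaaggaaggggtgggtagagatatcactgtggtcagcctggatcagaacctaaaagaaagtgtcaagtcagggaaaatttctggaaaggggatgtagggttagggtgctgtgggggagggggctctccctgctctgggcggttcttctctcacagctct
C1ra: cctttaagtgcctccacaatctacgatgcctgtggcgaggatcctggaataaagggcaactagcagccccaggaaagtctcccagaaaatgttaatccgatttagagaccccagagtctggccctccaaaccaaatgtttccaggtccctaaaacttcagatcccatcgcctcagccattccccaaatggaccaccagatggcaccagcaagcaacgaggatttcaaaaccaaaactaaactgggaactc
C3: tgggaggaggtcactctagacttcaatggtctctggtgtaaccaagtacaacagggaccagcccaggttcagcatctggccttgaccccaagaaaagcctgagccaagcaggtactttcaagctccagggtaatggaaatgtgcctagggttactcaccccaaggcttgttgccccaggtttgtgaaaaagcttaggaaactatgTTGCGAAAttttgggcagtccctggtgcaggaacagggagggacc

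Both strands of the full windows, 300 bases that also hold the first 50 after the start, were searched for GAAANNGAA (the core of the interferon-stimulated response element), TTCNNNGAA (gamma-activated site), GGNNNTTCC (NF-kB-like) and TTGCNNAA (C/EBP-like). The only match before a start was C/EBP-like, TTGCGAAA at -45 to -38 of C3. After the start, C1ra held a C/EBP-like match at 17 to 24 and a gamma-activated site at 33 to 41, and C1qb held an NF-kB-like match at 36 to 44. The C1qc window held none of the 4. Among 32851 windows of the same length, 8.56% held GAAANNGAA, 8.3% TTCNNNGAA, 18.5% GGNNNTTCC and 10.8% TTGCNNAA. A match describes letters and is not evidence of a bound site, and C1qa, C4b, C2 and Cfb were not searched.

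Of the 7 tested genes, 6 (C1qa, C1qb, C1qc, C1ra, C4b and C3) were higher in APPswe/PS1dE9 cultures, between 2.59-fold and 18.0-fold, and C2 did not pass the test. C1qa, C1ra and C2, well above background on 2, 0 and 1 WT arrays, passed the filter through APPswe/PS1dE9 alone. The filter thus favoured higher ratios for them, and the 2.59-fold is that of C1ra. Ratios are log2 of APPswe/PS1dE9 over WT from a limma fit with a dye term across 20593 features, given ± SE, with Benjamini-Hochberg adjustment over all of them. In that fit 8.26% of features were called higher and 2.28% lower at an adjusted p under 0.05. The 7 tested genes had a median ratio of 1.54 against 0.01 for all features, and 0 were lower (also 0 at an unadjusted p under 0.05 in limma). Of all features, 204 were at least 2-fold higher among those called, which includes all 6. The split of 1700 higher and 470 lower calls became 1308 and 1308 under median centring without loess, where the same 6 genes were called higher.

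**Figure D1:**
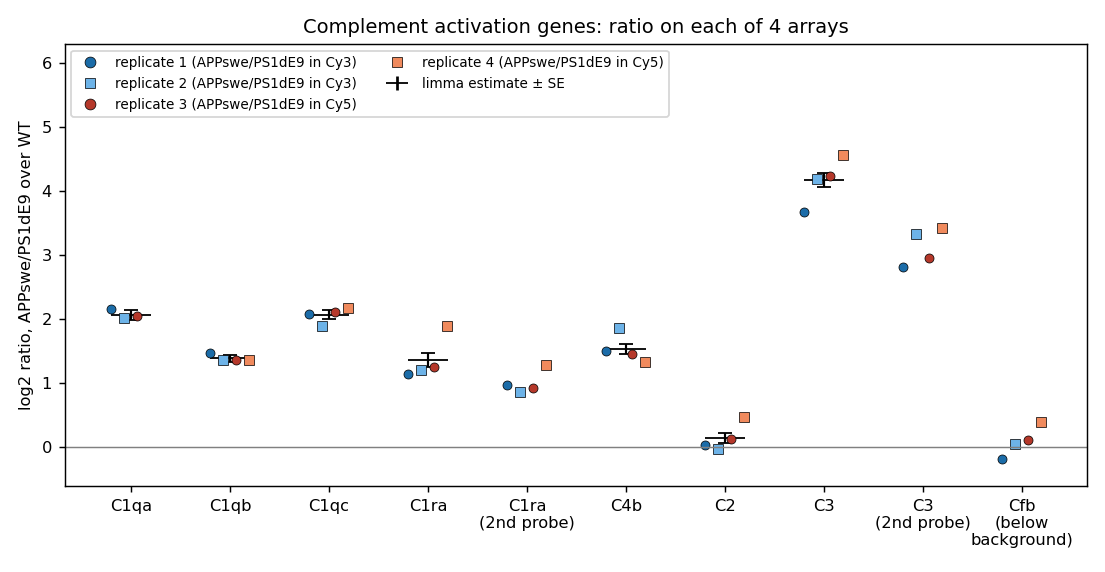
Log2 ratio of APPswe/PS1dE9 over WT (y axis) for the 10 probes of the 8 genes (x axis), 1 point per array, coloured by replicate and dye orientation, with bars for the limma estimate ± SE where a probe represents its gene. C3 lies highest at 3.67 to 4.57, while the points of C2 and Cfb fall on both sides of 0.

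The levels of the 2 genotypes can also be compared culture by culture. Normalised log2 intensities are given below for a gene within 1 probe, since probes differ in brightness for the same amount of RNA. In the 6 genes called higher, each measured APPswe/PS1dE9 culture lay above each measured WT culture (3 of each for C1qa, 4 for the others), whereas in C2 the genotypes overlapped. C1qa and C1ra among these 6 had passed the filter through APPswe/PS1dE9 alone. Over all features, 7.99% had APPswe/PS1dE9 levels entirely above WT levels.

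The A, B and C chains of C1q are encoded by adjacent genes on chromosome 4, and all of them rose. C1qa, the A chain, had ratios of 2.16, 2.02 and 2.05 on replicates 1 to 3. Its single spot on replicate 4 was marked as a non-uniformity outlier and was left out, so the fit rests on 3 arrays. The measured ratios lay within a narrow band. C1qa levels were 8.57, 8.47 and 8.99 in APPswe/PS1dE9 and 6.41, 6.44 and 6.93 in WT, without overlap. The estimate was 2.07 ± 0.08, 4.21-fold (limma adjusted p = 0.000367). In WT, 2 of 4 arrays had C1qa well above background, a count that takes in the spot left out on replicate 4. The WT signal of that spot was 1271, against 72.5, 88 and 71 on replicates 1 to 3. With the outlier spot kept, the C1qa estimate was 1.60 ± 0.28 (limma adjusted p = 0.0195).

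C1qb, the B chain, was measured at 8.31, 8.20, 8.57 and 8.61 in APPswe/PS1dE9 and at 6.83, 6.84, 7.21 and 7.24 in WT. The ratios, 1.47, 1.36, 1.36 and 1.37, were nearly the same on every array, with the highest on replicate 1. The fit gave 1.39 ± 0.06, 2.62-fold, with limma adjusted p = 0.000188.

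C1qc, the C chain, was printed as 10 spots per array. Its levels were 9.03, 8.85, 9.33 and 9.30 in APPswe/PS1dE9 and 6.94, 6.96, 7.21 and 7.12 in WT, again well apart. The ratios were 2.09, 1.89, 2.12 and 2.18, and the estimate was 2.07 ± 0.07, 4.20-fold (limma adjusted p = 0.000118). The SD between spots of the same array was 0.08 to 0.14, and the SD between the 4 array means was 0.12.

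The C1qb ratio was the smallest of the C1q chains on each array where it could be compared. It lay below C1qc by 0.68 ± 0.13 (SD, n = 4) on 4 of 4 arrays and below C1qa by 0.68 ± 0.02 (SD, n = 3) on 3 of 3. In exact sign-flip permutation tests the p-values were 0.125 and 0.250, the smallest that 4 and 3 arrays allow, or 0.312 and 0.417 after Benjamini-Hochberg adjustment over the 5 pairs of genes compared. C1qa and C1qc differed by 0.05 ± 0.10 (SD, n = 3, exact permutation p = 0.5, adjusted 0.5), less than the spread between arrays. These sizes depend on the offset of 50 added in background correction, which draws ratios of dim spots towards 0. With an offset of 0, C1qa was at 2.89 ± 0.13. Processed signals of the scanner software, which carry no offset, put C1qa at 3.46 ± 0.09, C1qc at 2.91 ± 0.09 and C1qb at 1.99 ± 0.09, again with C1qb smallest.

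C1ra encodes the protease C1r, which C1q activates and which in turn activates C1s. Its brighter probe was at 7.52, 7.32, 7.80 and 8.52 in APPswe/PS1dE9 and at 6.38, 6.11, 6.55 and 6.63 in WT, where no array had it well above background. The ratios were 1.14, 1.21, 1.25 and 1.89, so replicate 4 stood above the others. The estimate was 1.37 ± 0.11, 2.59-fold (95% interval 1.11 to 1.64 on the log2 scale, limma adjusted p = 0.00124). Setting WT to the lowest signal well above background, where that was higher, left this fold unchanged. It therefore gives no separate minimum.

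The dimmer C1ra probe had ratios of 0.97, 0.86, 0.93 and 1.29, again highest on replicate 4, and an estimate of 1.01 ± 0.08, 2.02-fold (limma adjusted p = 0.00144 over 26917 probes). Processed signals gave means of 3.54 ± 0.32 and 2.52 ± 0.69 (SD, n = 4) for the brighter and the dimmer probe, in the same order as the fits. C1rb, a near-identical copy beside C1ra, did not pass the filter, with ratios of -0.23, 0.43, 0.12 and 0.25, and how far the C1ra probes also detect C1rb is not known here.

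C4b encodes complement C4, the first substrate of C1s. It was at 13.22, 13.19, 13.23 and 13.10 in APPswe/PS1dE9 and at 11.73, 11.32, 11.76 and 11.77 in WT. The APPswe/PS1dE9 cultures were nearly equal, and the WT culture of replicate 2 was the low one. Ratios of 1.50, 1.86, 1.46 and 1.33 gave an estimate of 1.54 ± 0.08, 2.90-fold (limma adjusted p = 0.000309). Processed signals gave the same 1.54. C4a, a near-identical copy, had no probe by accession, so signal from C4a at the C4b probe cannot be told apart.

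C2, the protease that joins C4b in the classical C3 convertase, did not pass the test. Its levels were 6.94, 6.68, 7.13 and 7.18 in APPswe/PS1dE9 and 6.91, 6.71, 7.00 and 6.71 in WT. The groups overlapped, and only replicate 4 showed a clear gap. The ratios of 0.04, -0.02, 0.13 and 0.47 gave 0.15 ± 0.08, with a 95% interval of -0.03 to 0.34 (limma adjusted p = 0.276). The probe was well above background on 3 arrays in APPswe/PS1dE9 and on 1 in WT, so a change could have been missed near background. Processed signals ran with the dye, the genotype ratio being -0.48 and -0.68 with APPswe/PS1dE9 in Cy3 and 0.52 and 1.27 with it in Cy5.

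C3, on which the pathways converge, had the largest ratio of the 8 genes and ranked 2 among all features tested, after the interferon-induced chemokine Cxcl10. It was at 12.57, 12.94, 12.44 and 13.48 in APPswe/PS1dE9 and at 8.90, 8.75, 8.20 and 8.91 in WT, so the lowest APPswe/PS1dE9 culture was far above the highest WT culture. C3 was well above background in every culture of both genotypes. The ratios of 3.67, 4.19, 4.24 and 4.57 gave 4.17 ± 0.11, 18.0-fold (95% interval 3.91 to 4.43 on the log2 scale, limma adjusted p = 7.19e-05).

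This C3 probe was printed as 10 spots, whose SD within an array was 0.09 to 0.15 against 0.37 between arrays. The other C3 probe, on a single spot, had ratios of 2.82, 3.34, 2.96 and 3.42 and an estimate of 3.13 ± 0.12, 8.78-fold (limma adjusted p = 0.000178 over 26917 probes). The probes thus shared the direction on every array and differed in size by more than their SE. C3 and C4b belong to one protein family, and the C3 ratio exceeded that of C4b by 2.63 ± 0.48 (SD, n = 4) on 4 of 4 arrays (exact permutation p = 0.125, the smallest possible, adjusted 0.312).

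Cfb, factor B, was well above background on 0 arrays in either genotype and was not tested. The measured values were 6.00, 6.26, 6.19 and 6.27 in APPswe/PS1dE9 and 6.17, 6.20, 6.06 and 5.88 in WT, which overlap and give only an upper bound. With no filter on dim probes the ratio was 0.10 ± 0.08 (limma adjusted p = 0.615). The planned comparison of C2 with its relative Cfb would measure background and is not given, but it counts among the 5 pairs used for adjustment.

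**Figure D2:**
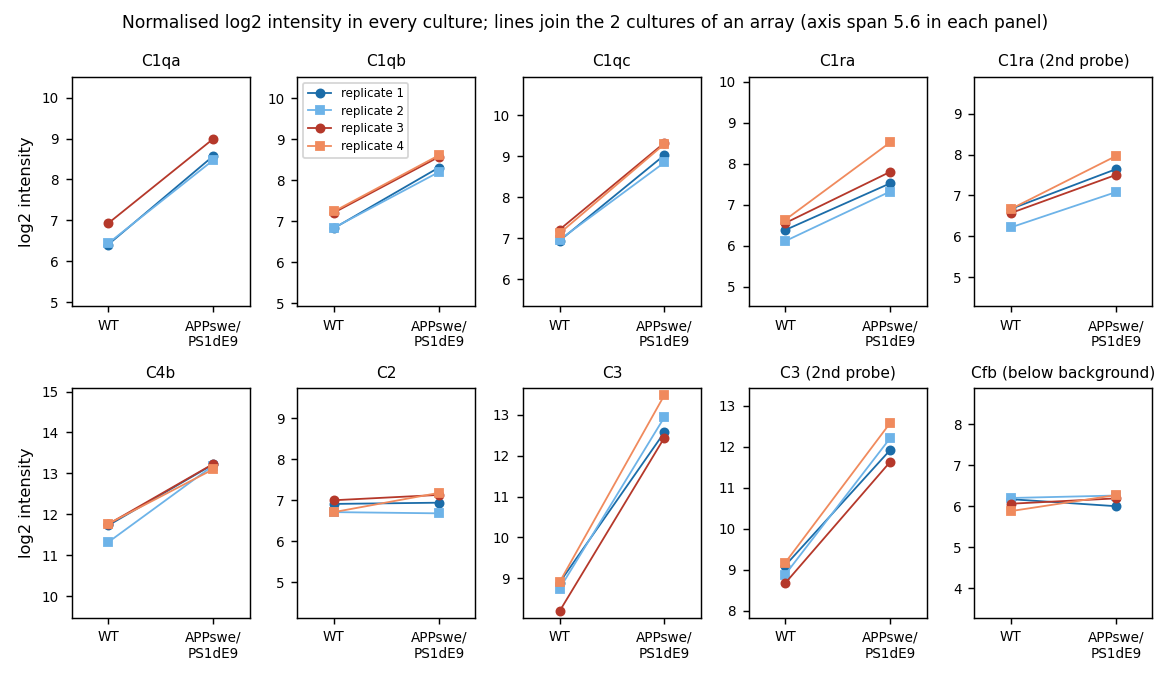
Normalised log2 intensity (y axis, the same span in each panel) of the 10 probes in WT and APPswe/PS1dE9 cultures (x axis), with a line joining the 2 cultures of an array. Lines rise on every array measured in the 8 panels of C1qa, C1qb, C1qc, C1ra, C4b and C3, and the genotypes overlap for C2 and Cfb, whose steepest lines are those of replicate 4. C1qa has no line for replicate 4, where its spot was left out.

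Replicate 4 gave the highest ratio of the 4 arrays in 4 of the 6 tested genes with values on all arrays, namely C1qc, C1ra, C2 and C3. For C4b it gave the lowest. C1qb had its highest ratio on replicate 1 and C4b on replicate 2. Without replicate 4 the estimates were 1.21 for C1ra, 4.08 for C3 and 0.07 for C2. On replicates 2 and 4 alone, where the cultures matched in sex-linked transcripts, C1qb was at 1.37, C1qc at 2.04, C1ra at 1.55, C4b at 1.60 and C3 at 4.38, each with a limma adjusted p of at most 0.00746. C1qa, which has no value on replicate 4, was at 2.02 on replicate 2 alone.

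Outside these 8 genes the list of the complement pathway held 46 genes, of which 44 had a probe and 18 were tested. Limma called 7 of the 18 higher and 0 lower (1, Cr1l, at an unadjusted p under 0.05), and their median ratio was 0.24. Among activation enzymes, the C1s genes C1s1 and C1s2 rose, at 0.94 ± 0.15 and 0.87 ± 0.10 (limma adjusted p = 0.0143 and 0.00409). C1s1 was at 0.73, 1.39, 0.46 and 1.17 and C1s2 at 0.88, 0.58, 0.79 and 1.24, higher on every array by the probes tested. A dimmer C1s2 probe, below the filter, was at -0.07, 0.56, 0.10 and -0.01. In WT, C1s1 and C1s2 were well above background on 2 and 1 arrays, so both passed the filter through APPswe/PS1dE9 alone. Without replicate 4 their limma adjusted p was 0.123 and 0.0571, and without replicate 3 that of C1s1 was 0.0626. Processed signals put C1s1 at 2.31 (0.0716) and C1s2 at 2.02 (0.00623). Properdin (Cfp), which stabilises the alternative convertase, was at 0.05 ± 0.08, and Masp2, the protease of the lectin pathway, at 0.04 ± 0.12. The lectin-pathway genes Mbl1, Mbl2, Fcna, Fcnb, Colec10, Colec11 and Masp1 and factor D (Cfd) did not pass the filter.

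In the terminal pathway Hc, which encodes C5, was higher at 0.78 ± 0.13 (limma adjusted p = 0.0184), with 0.48, 0.75, 0.55 and 1.34 by array. C8g was at 0.33 ± 0.13 without passing, and the other members, C6, C7, C8a, C8b and C9, were below the filter. Both measured fluid-phase regulators rose. Serping1, the inhibitor of C1r and C1s, was at 1.27 ± 0.10 (limma adjusted p = 0.00127), with its other probe at a mean of 0.84, and clusterin (Clu), an inhibitor of the membrane attack complex, at 0.90 ± 0.06 (0.000641). Without replicate 4 the limma adjusted p of Hc was 0.0827 and that of Serping1 0.0507, while Clu passed at 0.0254. Processed signals put Serping1 at 1.86 and Hc at 0.79 (limma adjusted p = 0.0885). Factor I (Cfi), which inactivates C3b, was below the filter.

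Of 6 tested membrane regulators, Cd55, which speeds the decay of the convertases, and Cd59a, which blocks the membrane attack complex, were higher at 0.50 ± 0.08 and 0.63 ± 0.09 (limma adjusted p = 0.0119 and 0.00854). Without replicate 4 these p-values were 0.105 and 0.0688, and without replicate 3 that of Cd55 was 0.0607. Cr1l, which encodes the regulator Crry, was at -0.20 ± 0.06 (0.109). None of the 3 tested receptor genes passed, with Itgb2 at 0.32 ± 0.10, Cr2 at 0.14 ± 0.06 and Itgam at 0.11 ± 0.10. That Itgam value is of its brightest probe, and a dimmer kept probe was at 0.01, 0.61, 0.25 and 0.40. A further Itgam probe, below the filter, was at -0.09, 0.54, -0.10 and -0.19. The anaphylatoxin receptors C3ar1, C5ar1 and C5ar2 were below the filter. With no filter on dim probes, C5ar1, well above background on 1 array in APPswe/PS1dE9 and 0 in WT, was at 0.48 (limma adjusted p = 0.0301), C3ar1 at 0.31 (0.0799) and C5ar2 at 0.06 (0.763). In that setting C1s1 and Hc no longer passed, with adjusted p of 0.0596 and 0.0695. Without replicate 4, Clu alone of the 18 passed, and without replicate 1 the count was 9. Processed signals left 4 of the 18 past the threshold, with Cd59a at 0.86 (limma adjusted p = 0.0653).

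**Figure D3:**
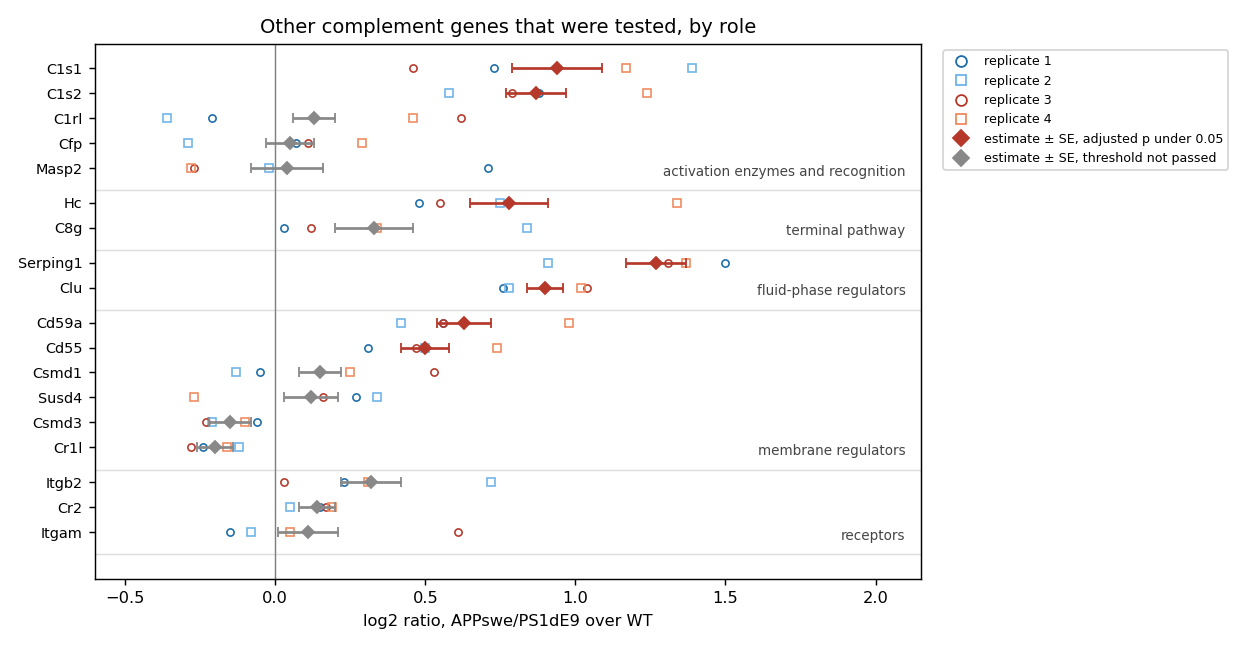
Log2 ratio of APPswe/PS1dE9 over WT (x axis) of the 18 other complement genes tested, grouped by role (y axis). Diamonds with bars are limma estimates ± SE, red where the adjusted p was under 0.05, and open symbols are the 4 arrays. The 7 red genes lie between 0.50 and 1.27.

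A further list held genes outside the cascade that encode C1q-domain proteins or, in the case of C1qbp, a C1q-binding protein. Of 10 tested, 4 were higher (C1ql1, C1ql2, C1ql3 and C1qtnf4, at 0.28 to 0.43), though C1ql2 was at 0.70 and 0.70 with APPswe/PS1dE9 in Cy3 and at -0.19 and 0.05 with it in Cy5. Another 2 were lower (Cbln2 at -0.45 and Cbln4 at -0.30), and the median of the 10 was 0.11. C1ql2 passed the filter through APPswe/PS1dE9 alone and Cbln4 through WT alone.

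RNA of mixed cultures does not separate the number of cells of a type from the RNA per cell, whether a marker is higher or lower. Markers of microglia and macrophages were higher together with the C1q genes. Of 20 listed, 14 were tested and 13 were higher, with a median ratio of 1.79, while Itgam, by its brightest probe, did not pass. Aif1 was at 2.22 ± 0.07, Cx3cr1 at 2.31 ± 0.08 and Tyrobp at 2.22 ± 0.09, close to C1qa and C1qc. The summed level of the 14 was 14982 to 19277 in APPswe/PS1dE9 and 10136 to 12327 in WT on the linear intensity scale. Bright probes weigh most in such a sum, and without Itgam, whose log2 level was 12.77 to 13.15 in WT, it was 7542 to 8652 in APPswe/PS1dE9 and 3006 to 3241 in WT. In WT, Cx3cr1 and Fcrls were well above background on 2 arrays, Tyrobp, Trem2, Tmem119, Ctss and Ly86 on 1, and Laptm5 and Adgre1 on 0. All of these passed the filter through APPswe/PS1dE9 alone, so the filter favoured higher ratios for them. P2ry12, Ptprc, Cd53, Spi1 and Mrc1 were below the filter, and Cd68 had no probe. The part of these markers in the complement results was not tested.

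Astrocyte markers were higher to a smaller degree, 6 of 10 with a median of 0.37 and Gfap at 0.69 ± 0.06, and their summed level was 195798 to 220633 in APPswe/PS1dE9 and 131295 to 171868 in WT. Of the choroid plexus and ependyma list 6 of 7 tested were higher, with a median of 1.27 and sums of 10174 to 14890 and 5031 to 5870. Neuron markers had 1 higher and 2 lower of 10 and a median of -0.02. Oligodendrocyte-lineage markers had 0 of 8 called by limma (1 higher and 1 lower at an unadjusted p under 0.05). Progenitor markers had 2 higher and 1 lower of 7, endothelial markers 2 higher of 4 tested and fibroblast and mural markers 2 lower of 7 tested. Among those called, the endothelial Flt1 passed the filter through APPswe/PS1dE9 alone and the fibroblast Lum through WT alone. Of the hepatocyte list only Ttr, which choroid plexus also expresses, passed the filter, while Alb, Apoa1, Serpina1a and Fgb did not.

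All 13 tested genes of a list of 15 interferon-response genes were higher, with a median of 2.05 and summed levels of 19522 to 26580 in APPswe/PS1dE9 and 4977 to 5564 in WT. Ifit1 and Usp18, well above background on 0 and 2 WT arrays, passed the filter through APPswe/PS1dE9 alone. Irf1, a transcription factor induced by interferon gamma, was at 1.25 ± 0.10 (limma adjusted p = 0.00127), and Irf7 was below the filter. The part of the interferon response in the complement results was not tested either.

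For each of the 7 tested genes, the named genes whose ratios on the 4 arrays lay nearest by Euclidean distance were listed among 13623 candidates. Nearest to C3 were Cxcl10 at a distance of 0.67, then Rtp4 at 2.16 and Oasl2 at 2.28, so C3 had few genes near it. Nearest to C1qa, on 3 arrays scaled to 4, were C1qc (0.19), Gbp5 (0.20) and Aif1 (0.20). C1qc lay nearest to Tlr2 (0.27), Gbp5 (0.31) and Ly86 (0.32), and C1qb to Cfap52 (0.09), Slc39a4 (0.13) and Cd72 (0.14). C1ra lay nearest to Irf1 (0.30), Fas (0.30) and B2m (0.31), all of which were highest on replicate 4. C4b lay nearest to Abcg1 (0.12), Hspb8 (0.30) and Irgm1 (0.38), and C2 to Fkbp14 (0.07), Neu1 (0.10) and Snapc2 (0.11).

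The genes next to the complement loci were described from the RefSeq order of protein-coding genes, 3 on either side. Of 29 neighbours, 23 were tested. Limma called 6 of these higher and 2 lower, where 8.26% of all features were called higher and 2.28% lower. Their median ratio was 0.05. The 6 include C1s1 and C1s2, which were already counted among the other complement genes. C1rl and C1rb are on that list too, so the 2 sets overlap. Beside the C1q genes on chromosome 4, Ephb2 (-0.01 ± 0.07), Epha8 (-0.09 ± 0.07) and Wnt4 (0.09 ± 0.06) did not pass and Zbtb40 was lower (-0.34 ± 0.07), so none of the 4 tested neighbours was higher. Tex46 and Lactbl1 were below the filter.

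C4b, Cfb and C2 lie close together in the class III region of the major histocompatibility complex on chromosome 17. Around C4b, Fkbpl (0.04), Atf6b (-0.11), Tnxb (0.17), Cyp21a1 (0.05), Stk19 (0.05) and Dxo (0.05) did not pass. Towards C2 and Cfb, Skiv2l (0.11), Nelfe (0.19) and Ehmt2 (0.03) did not pass, Zbtb12 was lower (-0.38 ± 0.06) and Slc44a4 was below the filter. C4b was the one gene called higher among those tested in this stretch.

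On chromosome 6, C1ra is followed by C1s1, C1rb and C1s2, and the C1s genes rose as given above. On the other side Clstn3 was higher at 0.32 ± 0.08, and Pex5 (0.00 ± 0.06) and C1rl (0.13 ± 0.07) did not pass. C3, elsewhere on chromosome 17, was followed by Trip10 (0.45 ± 0.09), Gpr108 (0.32 ± 0.07) and Vav1 (1.24 ± 0.06), all higher. Vav1 encodes a signalling protein of blood-lineage cells. Tnfsf9 on the other side was at -0.27 ± 0.08 without passing, and Cd70 and Tnfsf14 were below the filter. None of these neighbours approached the ratio of C3.

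**Figure D4:**
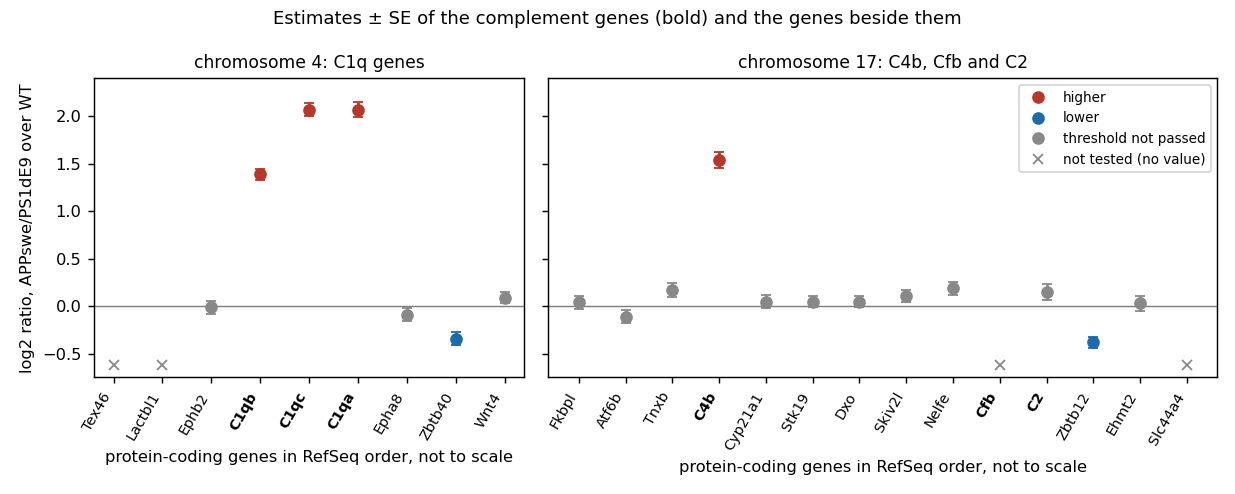
Limma log2 ratio ± SE (y axis) of the C1q genes and of C4b, Cfb and C2 (bold) with their neighbours in RefSeq gene order (x axis, not to scale). Crosses at the bottom mark genes without a test. C1qb, C1qc, C1qa and C4b stand at 1.39 to 2.07, and every neighbour shown lies between -0.38 and 0.19.

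The calls of the 6 higher genes held in every alternative that measured them, with adjusted p of at most 0.0223 in limma, whereas the sizes of C1qa, C1qb, C1qc and C1ra depended on the treatment of background. Requiring both genotypes well above background on all arrays left C1qb, C1qc, C3 and C4b, and all of these 4 were higher.

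**Figure D5:**
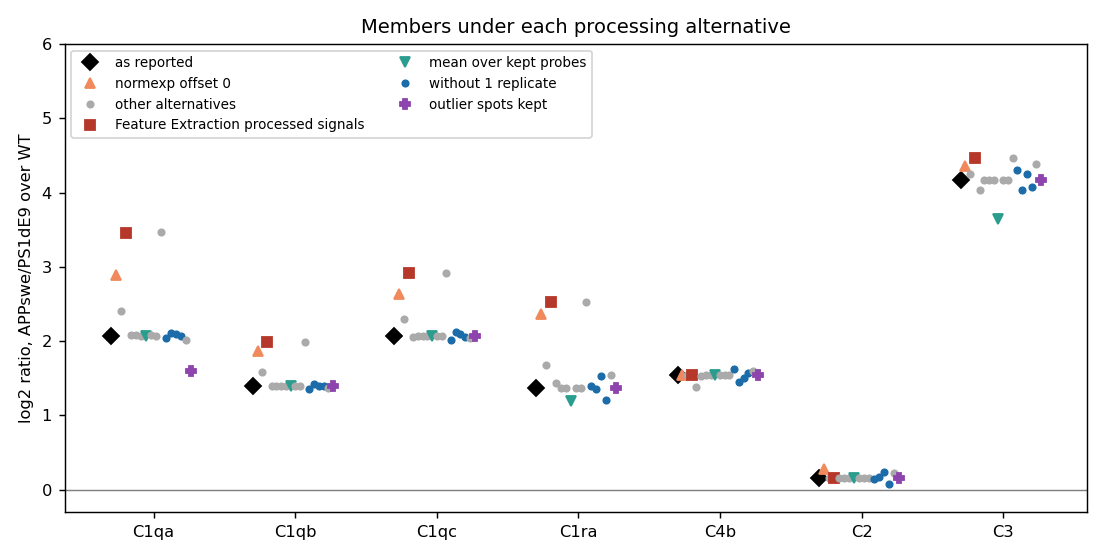
Log2 ratio of APPswe/PS1dE9 over WT (y axis) of the 7 tested genes (x axis) as reported (black diamonds) and under each processing alternative. C4b stays within 1.38 to 1.63 and C3 within 3.65 to 4.47, while C1qa spans 1.60 to 3.47 and C1ra 1.19 to 2.52. With processed signals the C1ra point is its other probe, the brighter of the pair under those signals, and the probe reported elsewhere had a mean of 3.54.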

How the data were processed

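RNA of 4 APPswe/PS1dE9 and 4 WT cultures was measured on 4 dye-balanced 2-colour arrays. Per the file headers, Feature Extraction 11.0.1.1 read all arrays from 1 scan of 1 slide. The authors deposited median foreground and background intensity values, not normalized, and processed intensity values with their log10 ratio of Cy5 over Cy3. The value table that was deposited covers 29350 spots without stating a scale, and set against the scanner files its values were log2 ratios of the processed signals, uncentred, running APPswe/PS1dE9 over WT (slopes -1.00, -1.00, 1.00 and 1.00, medians -0.0797, -0.155, -0.0373 and -0.0378). Cfb is not among its spots.

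Here, normexp background correction (offset 50) was followed by loess within arrays (limma 3.58.1, R 4.3.3), control and outlier spots were left out, and replicate spots were averaged. Probes were kept if well above background in 1 genotype on at least 3 of 4 arrays (26917 of 55681), and a gene was given by its kept probe of highest mean intensity. Accessions were matched to a RefSeq table of GRCm38.p6, used for names and gene order and, with its promoter table, for sequences. Genotype and dye terms were fitted with limma lmFit and eBayes (residual degrees of freedom 2, prior 4.13), with two-sided p-values at a threshold of 0.05. SE and p leave out differences between dye orientations, which go into the dye term. Levels per channel were taken after loess and Aquantile. The number of arrays limits the precision.

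Alternatives covered background correction, normalization, the filter, the probe rule, the dye term, the prior, the value table, each replicate left out and, chosen after seeing the data, same-sex arrays and outlier spots kept. The genes and lists were chosen with earlier results of these data known. Named were all of the 8 genes, other complement genes past the threshold or with a median ratio above 0.5 in size, the 3 nearest patterns, the 3 neighbours on either side, and Aif1, Cx3cr1, Tyrobp, Gfap, Irf1 and App. Some items under this rule are not reported here. Other list genes are examples chosen after their values were seen.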

Additional observations from a re-analysis of the deposited data

Results flagged for a closer look

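Of 27 sets of 4 values examined, 3 held a culture or array far from the others, where chance alone gives about 1 in 20 for independent sets. Ratios and levels come from the same arrays, so these sets are not independent and that share is only a rough guide. The C1qb ratio was 1.47 on replicate 1 against 1.36 to 1.37 on the others, a gap smaller than the SD of 0.12 between arrays of C1qc. The ratio of the brighter C1ra probe was 1.89 on replicate 4 against 1.14 to 1.25, and the dimmer probe was also highest there, at 1.29. The WT level of C4b was 11.32 on replicate 2 against 11.73 to 11.77, while the APPswe/PS1dE9 culture of that array, at 13.19, was among the others.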

How the results depend on the processing

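The 6 higher complement genes stayed higher and past the threshold under every alternative that measured them and without any 1 replicate. C1qa on the same-sex arrays, with 1 array, is left aside there, and leaving out replicate 4 removes no C1qa value. C2 stayed short of the threshold in all alternatives. The p-values of different settings cannot be compared in size. For C3 the limma adjusted p was 7.19e-05 as reported, 4.94e-10 without replicate 1 and 2.24e-249 with median centring. With a replicate left out, the count of higher genes was 6 each time. The counts over all features moved more. Higher calls were 1700, and 715 with processed signals and with the deposited value table, 960 with no filter on dim probes, 471 on the same-sex arrays and 368 to 2256 with a replicate left out, the low ends being 519 without replicate 3 and 368 without replicate 4. Lower calls were 470, and 284 with no background correction, 240 with processed signals, 239 with the deposited table, 1308 with median centring, 103 with no filter, 259 with no dye term, 11 on the same-sex arrays and 4 to 519 with a replicate left out, with 29 without replicate 3 and 4 without replicate 4. The count of other complement genes called higher was 7, and 4 each with processed signals, the stricter filter, the deposited table and the same-sex arrays, and 1 to 9 with a replicate left out. The causes were not tested, other than that the stricter filter measured fewer genes. Same-sex arrays were fitted on 2 arrays without a dye term, and C1qa rests on 1 of them. Each ratio pairs the 2 cultures of an array, so every fit is paired by array and no further block was added. C1qa has no value on replicate 4, so without replicate 3 it rests on replicates 1 and 2, both with APPswe/PS1dE9 in Cy3 (2.09, limma adjusted p = 0.0109), and genotype and dye cannot be told apart there. Without replicate 1 or 2 it rests on 2 arrays of opposite dye, so its p there has no replicates of its own behind it. Signal near background limits Cfb, C2 and the WT side of C1ra and C1qa.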
